A study of Arabidopsis thaliana with 8 samples.

Results

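WRKY proteins are plant transcription factors with a DNA-binding domain in which a zinc finger follows a short conserved core that gave the family its name. They bind promoter elements called W-boxes, and many WRKY genes carry W-boxes in their own promoters, so members regulate themselves and each other. In Arabidopsis the family is best known from immunity, senescence, nutrient supply and responses to heat or drought. Proteins of group I have a pair of WRKY domains. Those of group II have a single one and are divided into IIa to IIe by sequence, and those of group III have a single domain with a different zinc finger. MAP kinases phosphorylate several group I members, and short proteins with a VQ motif bind members of groups I and IIc.

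The family was taken as 54 Arabidopsis loci named as WRKY genes, listed by locus, and WRKY44 (TTG2), a trichome gene, was left out. WRKY loci outside the list were not read, so group sizes and counts below are those of the list. Each of the 54 had 1 probe on the array, among 25665 loci with a probe. The study compared 2-week-old whole seedlings that carry WIN1 under the 35S promoter (genotype 35S:WIN1:NOS) with seedlings titled vector control, 4 samples of each, all in the ecotype Columbia-0. The genotype field of the control samples says wild type, so whether they carry an empty vector is not settled by the labels. All seedlings grew on MS agar with 1% sucrose at 23 °C in 16 h light and 8 h dark. WIN1 (also called SHN1) encodes an AP2/ERF transcription factor that promotes cuticle formation, and the viral 35S promoter drives it in most tissues, so the samples show a seedling with WIN1 outside its normal range of cells. How many independent lines were used is not stated in the labels. Each sample was several seedlings from a plate that held many, and nothing states that the 4 samples of a group came from separate plates, so a p-value here speaks of these samples and their spread may be partly technical.

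Levels are given as log2 of the processed signal relative to the 75th percentile of the same array, so 0 is the brightness of a probe at that percentile. A difference is the mean of 35S:WIN1 minus the mean of the control, and its adjusted p comes from limma over all 20441 genes tested, with Benjamini-Hochberg adjustment and a threshold of 0.05. A level compares 1 probe between samples and never different genes. The 4 transgenic arrays shared 1 slide and the 4 control arrays another. Slide effects and genotype effects therefore cannot be told apart in any difference given here. The signal at the 75th percentile was lowest in 35S:WIN1 replicates 1 (997) and 2 (1269) and was 1790 to 2490 on the other 6 arrays. Between 58.9% and 65.2% of probes exceeded background. Correlations between arrays ran from 0.948 to 0.987 within a group and from 0.885 to 0.927 between groups.

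WIN1 itself (AT1G15360) read 5.62, 5.44, 4.50 and 3.85 in 35S:WIN1 and -9.10, -6.07, -9.32 and -8.34 in the control. Its probe was above background on all 4 transgenic arrays and on 1 control array. The log2 difference of the values as measured was 13.06 (SE 0.73, limma adjusted p = 2.88e-05). With values below detection raised to the array's detection floor, which lowers such a difference, WIN1 was 3836-fold higher, so every library matched its label.

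Of the 54 WRKY genes, 51 were above background on at least 4 of the 8 arrays and were tested, and 42 of these were above background on all 8. In 35S:WIN1, 25 of the 51 were higher and 4 were lower at the threshold, and 22 did not pass it. Over all genes tested 35.3% were called, 15.1% of them higher and 20.2% lower as shares of the genes tested, while among the WRKY genes 56.9% were called, 49.0% higher and 7.84% lower. The change was at least 2-fold for 21 higher members, against 7.73% of all genes, and for 1 lower member, against 7.47% of all genes. For 7 members the increase was over 8-fold, also with values below detection raised to the floor. With another background correction (normexp with an offset of 50), WRKY33, WRKY40, WRKY53 and WRKY75 stayed over 8-fold. WRKY46, WRKY38 and WRKY51 fell under it there, with log2 differences of 2.58, 1.86 and 1.45. The median log2 difference of the 51 was 0.66 beside -0.045 for all genes tested, and on a scale set by spiked-in RNA the family's median fell to -0.98 beside -1.68 for all genes. The 29 called members were also the 29 whose 35S:WIN1 and control values did not overlap, which held for 35.7% of all genes tested. In whole seedlings fewer cells of a type and less RNA per cell cannot be told apart.

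**Figure D1:**
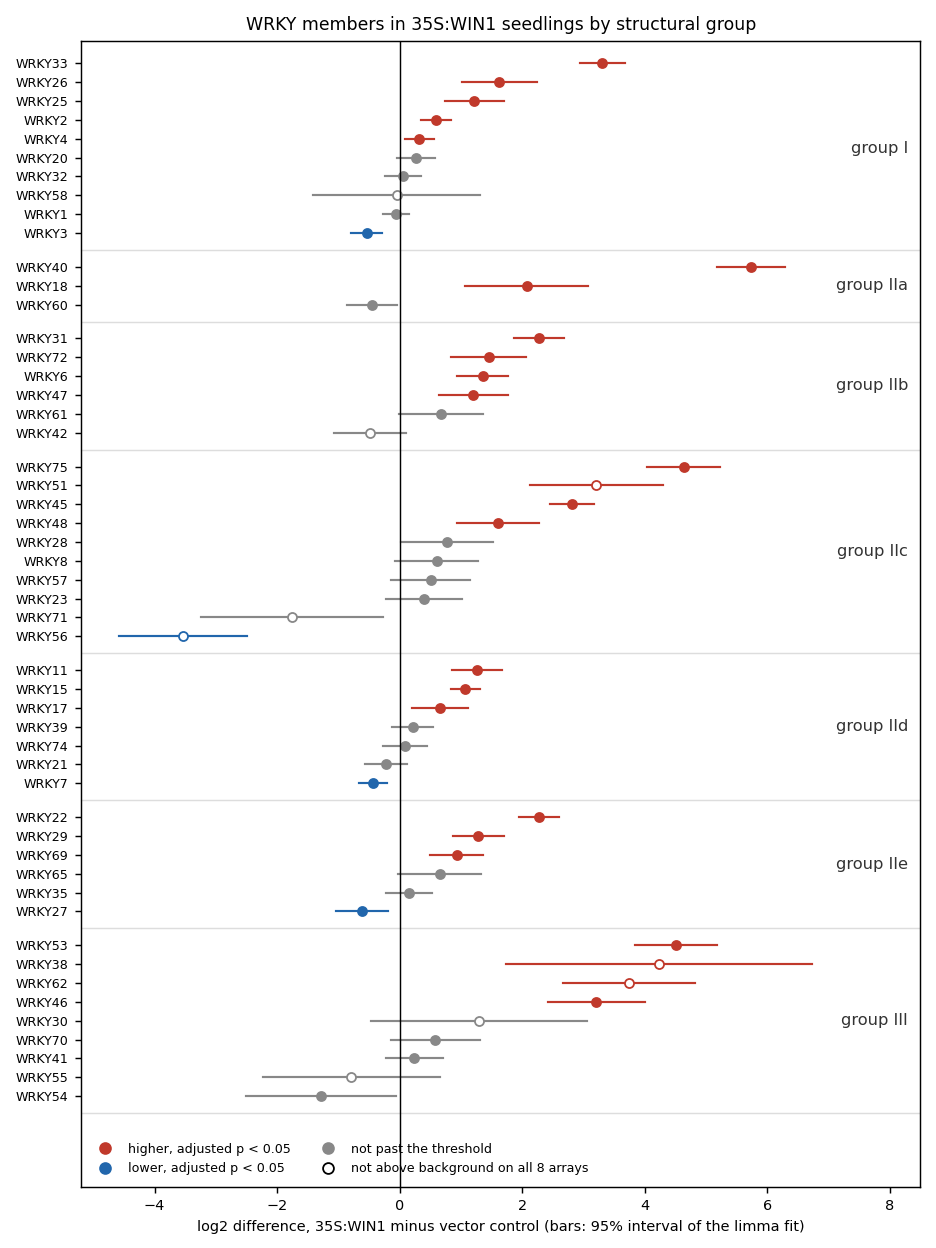
Log2 difference of 35S:WIN1 minus vector control for each of the 51 tested WRKY genes (points, with 95% confidence intervals as bars), arranged by structural group, with called members coloured. WRKY40, WRKY75 and WRKY53 stand farthest to the right at 5.73, 4.64 and 4.51, and WRKY56 farthest to the left at -3.54. On the spike-in scale 13 of the 25 higher members lie below 0.

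Group I includes factors that MAP kinases phosphorylate. In it, 5 of 10 members were higher, 1 was lower and 4 did not pass, so 60% were called beside 35.3% of all genes. The median difference of 0.30 turned to -1.34 on the spike-in scale and to -0.10 in the deposited, unscaled table. WRKY33 (AT2G38470), the regulator of camalexin synthesis and of defence against necrotrophic fungi, read 4.06, 3.36, 3.64 and 3.82 in 35S:WIN1 against 0.44, 0.58, 0.23 and 0.41 in the control. Both groups were tight and lay far apart, 3.72 ± 0.29 against 0.41 ± 0.14 (SD, n = 4 each), a 9.90-fold increase (log2 difference 3.31, SE 0.16, limma adjusted p = 2.00e-05). WRKY25 and WRKY26, which act with WRKY33 in heat tolerance, were also higher. WRKY26 rose 3.09-fold (limma adjusted p = 0.00299) and WRKY25 2.33-fold (limma adjusted p = 0.00341). WRKY2, known from polarity of the zygote and from pollen, rose 1.51-fold (limma adjusted p = 0.00438).

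The closely related WRKY3 and WRKY4, both linked to resistance against necrotrophs, went opposite ways on the percentile scale, whereas on the spike-in scale both differences were negative (WRKY4 -1.31). WRKY3 (AT2G03340) read -0.38, -0.32, -0.17 and 0.02 in 35S:WIN1 and 0.30, 0.30, 0.32 and 0.38 in the control, a 1.45-fold decrease (log2 difference -0.54, SE 0.11, limma adjusted p = 0.00752). The WRKY3 call was lost in the deposited table (limma adjusted p = 0.132). It was also lost without the dim transgenic replicates 1 and 2 (limma adjusted p = 0.0532). Every 35S:WIN1 value of WRKY3 lay under every control value, whereas those of WRKY4 (-0.15 to -0.04) lay above its control values (-0.64 to -0.32). The WRKY4 difference was small, 0.32 with an SE of 0.10 (limma adjusted p = 0.0439). Its call was lost without any 1 of 35S:WIN1 replicates 1 to 3 or any 1 control array, with adjusted p of 0.0625 to 0.105. WRKY1 (AT2G04880), named ZAP1 in RefSeq, hardly moved: 0.67, 0.57, 0.72 and 0.69 against 0.68, 0.68, 0.87 and 0.68. Its 95% interval for the difference, -0.27 to 0.15, lay within 2-fold. WRKY32 (AT4G30935) read 0.15, 0.05, 0.20 and 0.11 against -0.16, -0.06, 0.16 and 0.34, and its interval of -0.23 to 0.35 did so too. WRKY20, at 0.27 (95% interval -0.037 to 0.58), did not pass, nor did WRKY58, at -0.051 from a probe below background on some arrays of both groups (95% interval -1.42 to 1.32).

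Group IIa has 3 members in Arabidopsis, WRKY18, WRKY40 and WRKY60, which bind one another and act in part redundantly as repressors in basal defence and in abscisic acid signalling. Their differences ran from 5.73 to -0.45. WRKY40 (AT1G80840) showed the largest difference of the family. It read 3.74, 2.51, 3.15 and 3.0 in 35S:WIN1 and -2.84, -2.54, -2.66 and -2.50 in the control, so the groups lay far apart. The means were 3.1 ± 0.51 and -2.63 ± 0.15 (SD, n = 4 each), a 53.3-fold increase (log2 difference 5.73, SE 0.24, limma adjusted p = 1.09e-05), and WRKY40 was still higher on the spike-in scale, by 4.10.

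WRKY18 ranged from 2.69 to 4.15 in 35S:WIN1 and from 0.35 to 1.81 in the control and was 4.20-fold higher (log2 difference 2.07, SE 0.44, limma adjusted p = 0.00817). In both groups replicates 1 and 2 were the higher pair. With the dim transgenic replicates 1 and 2 left out, its difference was 1.54 and no longer passed (adjusted p = 0.0572), and on the spike-in scale it was 0.44 (adjusted p = 0.447). WRKY60 had a difference of -0.45 with a 95% interval of -0.86 to -0.04 (limma adjusted p = 0.0804). Its value on 35S:WIN1 replicate 4, at 0.29, stood apart from the other 3, at -0.38 to -0.30, and without that array WRKY60 was called lower (difference -0.61, adjusted p = 0.00781).

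Group IIb includes factors of phosphate transport and senescence. Of its 6 members 4 were higher and none was lower, so 66.7% were called beside 35.3% of all genes. The median of 1.28 turned to -0.35 on the spike-in scale. WRKY31 (AT4G22070) read -0.92, -1.18, -0.81 and -0.99 in 35S:WIN1 and -3.64, -2.94, -2.99 and -3.40 in the control. With no overlap between the groups it was 4.82-fold higher (log2 difference 2.27, SE 0.18, limma adjusted p = 1.19e-04). WRKY72, a factor of basal immunity, rose 2.74-fold (limma adjusted p = 0.00454), WRKY6, a senescence factor that also represses the phosphate exporter gene PHO1, 2.56-fold (limma adjusted p = 0.00119) and WRKY47 2.31-fold (limma adjusted p = 0.00705). WRKY42, like WRKY6 a repressor of PHO1, had a difference of -0.48 (95% interval -1.08 to 0.11) from levels near background, and WRKY61 one of 0.67; neither passed.

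Group IIc is the largest and held the widest spread, from 4.64 to -3.54 among the 10 of 13 members that could be tested. Of these 4 were higher and 1 was lower, so 50% were called beside 35.3% of all genes. The median of 0.69 turned to -0.94 on the spike-in scale. WRKY75 (AT5G13080), known from phosphate starvation, root hair growth and leaf senescence, read 2.72, 2.15, 2.00 and 1.58 in 35S:WIN1 and -2.83, -2.14, -2.35 and -2.77 in the control. The means were 2.12 ± 0.47 and -2.52 ± 0.33 (SD, n = 4 each), a 24.9-fold increase (log2 difference 4.64, SE 0.26, limma adjusted p = 2.87e-05). WRKY45 (AT3G01970), an activator of phosphate uptake and of senescence, moved the same way, with 2.01, 1.76, 1.89 and 1.74 against -0.84, -0.75, -0.86 and -1.40. It was 7.02-fold higher (log2 difference 2.81, SE 0.16, limma adjusted p = 2.88e-05), and both WRKY75 and WRKY45 stayed higher on the spike-in scale, by 3.0 and 1.18.

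WRKY51 (AT5G64810), which with WRKY50 represses jasmonate signalling when oleic acid is low, read -3.20, -3.44, -2.99 and -4.20 in 35S:WIN1 and -7.66, -5.98, -7.29 and -5.75 in the control. Its measured log2 difference was 3.21 (SE 0.47, limma adjusted p = 0.00183). The probe was above background on 3 of the 4 control arrays, and with values raised to the detection floor WRKY51 was 8.44-fold higher. WRKY48, a repressor of basal defence, rose 3.05-fold (limma adjusted p = 0.00450). The exception in the group was WRKY56 (AT1G64000), with -6.33, -5.60, -7.56 and -6.36 in 35S:WIN1 against -3.66, -2.08, -2.77 and -3.16 in the control. Its measured log2 difference was -3.54 (SE 0.46, limma adjusted p = 0.00102). WRKY56 was above background on all 4 control arrays and on 2 transgenic ones, and with values raised to the floor it was 11.4-fold lower. These dim probes depended on the background correction: with normexp and an offset of 50, which compresses low signals, the difference was -1.05 for WRKY56 and 1.45 for WRKY51.

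The other 5 tested members of IIc did not pass: WRKY71, WRKY23, WRKY57, WRKY8 and WRKY28, with differences from -1.76 to 0.78. WRKY71, a factor of shoot branching and flowering, had the most negative of these (95% interval -3.24 to -0.27, limma adjusted p = 0.066), from a probe above background on 1 transgenic and 3 control arrays. With normexp the sign turned (0.27). It passed as lower without 35S:WIN1 replicate 4 (difference -2.10, adjusted p = 0.0372). Without that same array WRKY23, a root gene of auxin and flavonol regulation, passed as higher (0.68, adjusted p = 0.00878), and WRKY57 did so without 35S:WIN1 replicate 2 (0.75, adjusted p = 0.0369). WRKY43, WRKY50 and WRKY59 were not tested. WRKY43 was above background on 3 control arrays and no transgenic one, WRKY50 on 2 control arrays and no transgenic one, and WRKY59 on none.

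Group IId proteins bind calmodulin, and in this group the differences were small. Of 7 members 3 were higher, 1 was lower and 3 did not pass, so 57.1% were called beside 35.3% of all genes. The median of 0.21 fell to 0.086 without control replicate 4 and turned to -1.42 on the spike-in scale and -0.19 in the deposited, unscaled table. WRKY15 (AT2G23320), which affects leaf growth and salt stress, read 2.29, 1.98, 2.22 and 2.29 in 35S:WIN1 and 1.09, 1.06, 1.15 and 1.19 in the control, a 2.11-fold increase (log2 difference 1.07, SE 0.10, limma adjusted p = 2.79e-04). WRKY11 rose 2.39-fold (limma adjusted p = 0.00153). WRKY17, which with WRKY11 limits resistance to bacteria, was 1.58-fold higher (limma adjusted p = 0.0358), a call lost without any 1 of 35S:WIN1 replicates 1 to 3 or control replicates 1 to 3 (adjusted p from 0.0605 to 0.0845).

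WRKY7 (AT4G24240), a negative regulator of the same bacterial defence, was the lower member of IId. It read 0.12, 0.18, 0.20 and 0.04 in 35S:WIN1 and 0.49, 0.76, 0.57 and 0.48 in the control, without overlap (log2 difference -0.44, SE 0.10, limma adjusted p = 0.0114). The WRKY7 call was lost in the deposited table (limma adjusted p = 0.148). It was also lost without the dim transgenic replicates 1 and 2 (limma adjusted p = 0.0574). WRKY74 (AT5G28650) did not pass, with -1.99, -2.28, -2.22 and -2.00 against -2.10, -1.89, -2.31 and -2.54 and an interval of -0.27 to 0.45. WRKY21 and WRKY39 did not pass either, with differences of -0.22 and 0.21.

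Group IIe holds WRKY22 and WRKY29, which lie downstream of the flagellin-triggered MAP kinase cascade. Of its 6 members 3 were higher and 1 was lower, so 66.7% were called beside 35.3% of all genes. The median of 0.79 turned to -0.84 on the spike-in scale. WRKY22 (AT4G01250) read 1.36, 0.90, 1.01 and 0.86 in 35S:WIN1 and -1.30, -1.01, -1.37 and -1.25 in the control, a 4.82-fold increase (log2 difference 2.27, SE 0.14, limma adjusted p = 4.28e-05). WRKY29 rose 2.44-fold (limma adjusted p = 0.00144) and WRKY69 1.91-fold (limma adjusted p = 0.00683). WRKY27 (AT5G52830), which promotes wilting after infection by Ralstonia, went the other way, with -1.21, -1.12, -1.45 and -1.60 against -1.04, -0.36, -0.97 and -0.56. Its groups lay close together (log2 difference -0.61, SE 0.19, limma adjusted p = 0.0349), and it no longer passed when 35S:WIN1 replicate 1, 3 or 4 or control replicate 2 or 4 was left out (adjusted p from 0.0573 to 0.084). WRKY35, at 0.15, did not pass, and WRKY65, at 0.66, passed as higher without 35S:WIN1 replicate 4 (0.91, adjusted p = 0.0147).

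Group III contains several factors tied to salicylate and to senescence. Of its 9 members 4 were higher, none was lower and 5 did not pass, so 44.4% were called beside 35.3% of all genes. The median of 1.29 fell to 0.72 without 35S:WIN1 replicate 4 and turned to -0.34 on the spike-in scale. WRKY53 (AT4G23810), an early activator of leaf senescence, read 3.05, 2.40, 3.06 and 3.27 in 35S:WIN1 and -1.95, -1.22, -2.11 and -0.99 in the control. The means were 2.94 ± 0.38 and -1.57 ± 0.54 (SD, n = 4 each), a 22.8-fold increase (log2 difference 4.51, SE 0.29, limma adjusted p = 5.23e-05). WRKY46 (AT2G46400), a factor of drought and salicylate responses, read 0.13, -1.28, -0.60 and -0.54 against -4.02, -3.18, -4.40 and -3.54. It was 9.26-fold higher (log2 difference 3.21, SE 0.35, limma adjusted p = 4.75e-04), with every transgenic array above every control array.

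WRKY38 and WRKY62, a related pair induced through NPR1 that limits basal defence, were both close to or under the detection limit in the control. WRKY62 (AT5G01900) read -4.11, -5.05, -3.98 and -5.70 in 35S:WIN1, above background on all 4 arrays, and -7.87, -9.48, -8.31 and -8.15 in the control, above background on none. The control level is thus a bound, and WRKY62 was at least 6.33-fold higher. It was tested because of its transgenic signal, and its limma adjusted p of 9.00e-04 rests on control values below detection. WRKY38 (AT5G22570) read -1.94, -3.05, -2.76 and -2.88 in 35S:WIN1 and -7.79, -5.57, -9.92 and -4.26 in the control, where 2 of 4 arrays were above background. Its measured log2 difference was 4.23 (SE 1.09, limma adjusted p = 0.0187), and with values raised to the floor it was 11.3-fold higher. With normexp the difference was 1.86 for WRKY38 and 1.14 for WRKY62. The wide spread of its control values made the call sensitive, and it did not survive leaving out 35S:WIN1 replicate 1 (adjusted p = 0.0518) or control replicate 1 (adjusted p = 0.053).

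WRKY70 and WRKY54, a pair that acts together in salicylate responses and holds back senescence, did not pass. WRKY70 ranged from 1.48 to 1.79 in 35S:WIN1, inside the control's range of 0.54 to 2.05. Its difference of 0.58 (95% interval -0.15 to 1.31) rose to 0.89 without control replicate 4 and then passed (adjusted p = 0.0177). WRKY54 had a difference of -1.29 (95% interval -2.51 to -0.07, limma adjusted p = 0.0933), and its control replicate 4, at -0.87, lay above the other 3, at -3.20 to -2.60. WRKY30, induced by oxidative stress, had a difference of 1.29 with a wide interval of -0.47 to 3.06. WRKY41, a factor of seed dormancy, stood at 0.24 (95% interval -0.23 to 0.70). WRKY55 lies next to WRKY54 on chromosome 2, and among the listed loci they are the only neighbours in gene order. WRKY55 stood at -0.79 (95% interval -2.23 to 0.65), and passed as lower without 35S:WIN1 replicate 4 (-1.42, limma adjusted p = 0.0175). Its probe was above background on only 1 transgenic array, and with values raised to the floor the difference was 0.23, so its sign rests on values below detection.

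**Figure D2:**
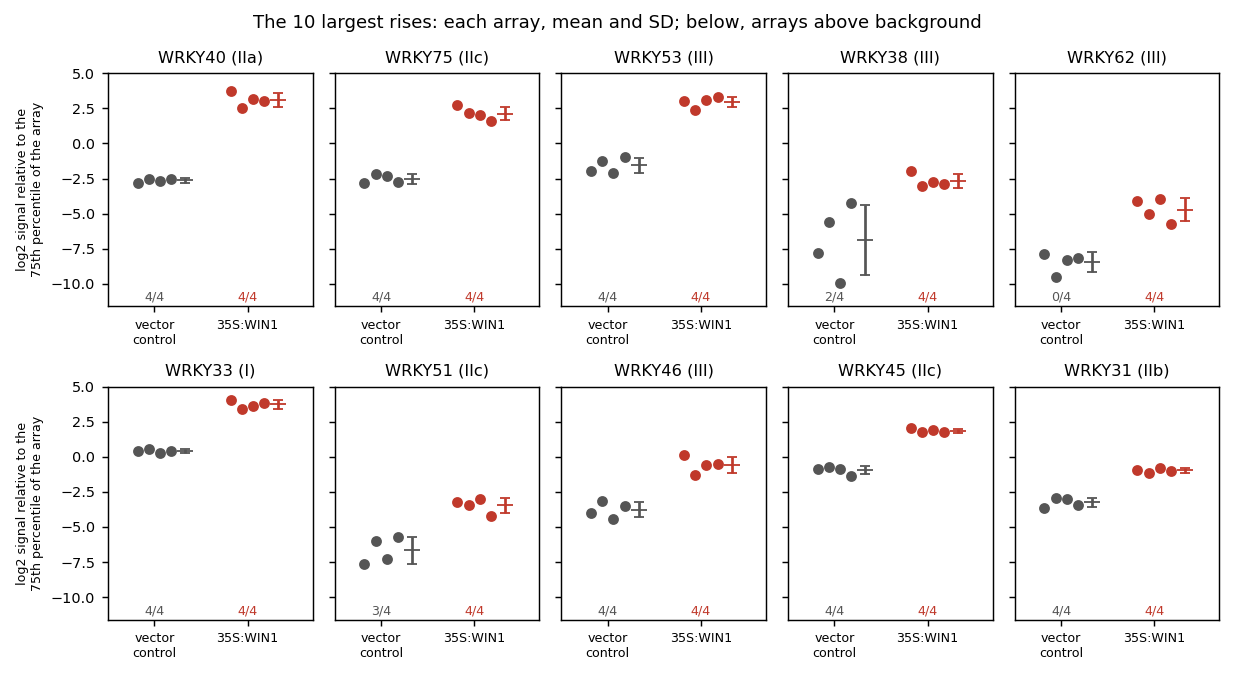
Level of the 10 most raised WRKY genes on each of the 8 arrays, as log2 signal relative to the array's 75th percentile. Vector control and 35S:WIN1 have separate colours, with bars for group means and SD, and the number of arrays above background printed under each group. Lower members are not drawn. The 4 values of each group stay apart for every gene drawn, as they do for every called member. The control values of WRKY38 spread most, from -9.92 to -4.26.

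Of the 22 members that did not pass, 14 had positive and 8 negative differences, 4 had an unadjusted p under 0.05 (WRKY71, WRKY54, WRKY60 and WRKY28), and 9 had a 95% interval within 2-fold. Of the 25 higher members 22 were above background on all 8 arrays, as were 3 of the 4 lower and 17 of the 22 not called. Over all genes tested these were 18764 of 20441. Whether the classes differ in detection was not tested. The loci lie on all 5 chromosomes, 15 of them on chromosome 2 and 13 each on 4 and 5.

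Several close relatives moved unequally, and the ratio of 2 genes within an array does not depend on how arrays are scaled, though for dim probes it does depend on the background correction. The pairs were chosen after their values were seen, so their ratios are a description without a test. The log2 difference of WRKY40 exceeded that of WRKY60 by 6.19 and that of WRKY18 exceeded it by 2.52. WRKY53 exceeded WRKY41 by 4.27, and WRKY22 exceeded WRKY27 by 2.88. Smaller gaps separated WRKY33 from WRKY25 (2.09), WRKY70 from WRKY54 (1.87), WRKY15 from WRKY7 (1.51), WRKY4 from WRKY3 (0.86) and WRKY11 from WRKY17 (0.60). In all 13 pairs compared, the 4 ratios of 35S:WIN1 did not overlap the 4 of the control. Of these pairs 2 hold the partly undetected WRKY56. Another sets WRKY31 against WRKY42, which was above background on 3 of 4 transgenic arrays and turned to 0.28 with normexp. How often other gene pairs part in this way was not counted.

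Array by array, the family's median stood 0.94, 0.64, 0.77 and 0.88 above the control mean in 35S:WIN1 replicates 1 to 4, and at -0.20, 0.18, -0.02 and 0.11 in the control. The same median over all genes tested lay between -0.07 and -0.03 in the transgenic arrays. The 25 higher members had medians of 2.33, 1.64, 1.60 and 1.91 on the transgenic arrays. They were called from these same arrays without overlap between the groups, so a raised median on each was fixed in advance. Group III varied most between samples, with 0.36, 1.12, 0.91 and 2.75 in 35S:WIN1 and -0.34, -0.01, -0.52 and 0.58 in the control, and replicate 4 was the top array of both groups.

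**Figure D3:**
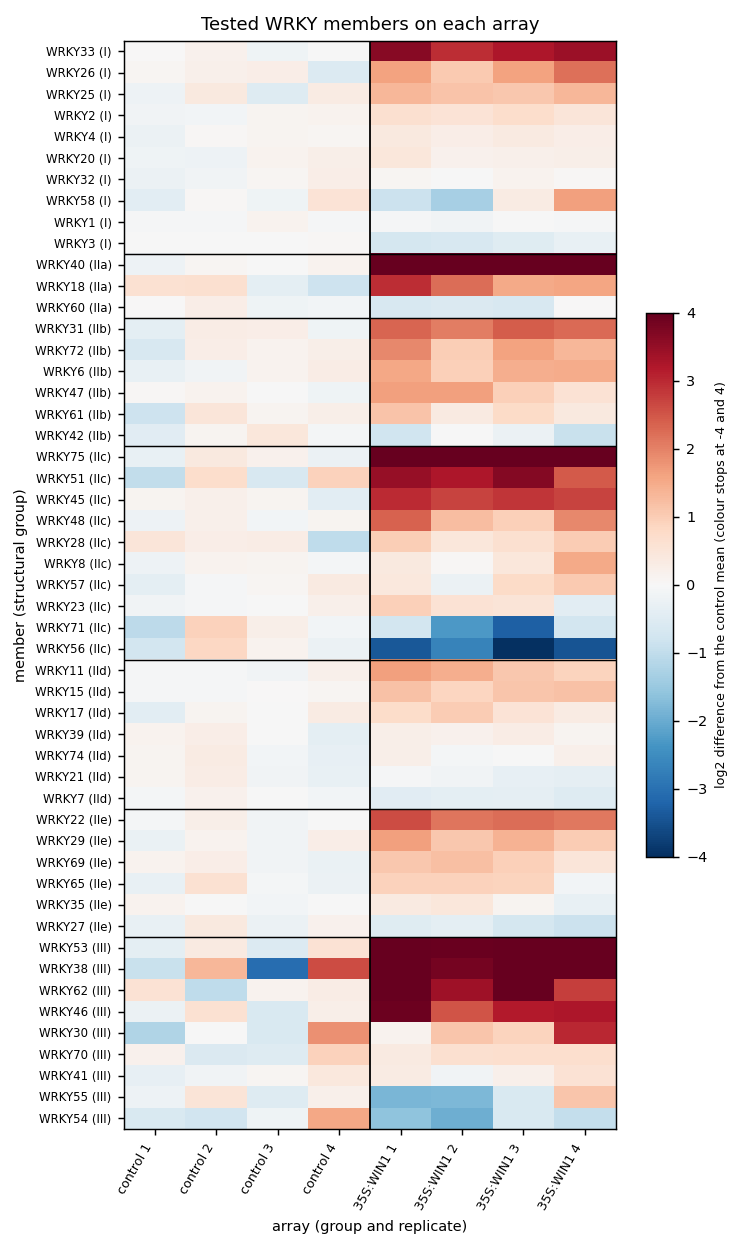
Level of every tested WRKY gene on each array minus its mean over the 4 control arrays (log2, colour), rows by structural group, columns by array. On this percentile scale the 25 higher members, which were called from these same arrays, are raised in all 4 columns of 35S:WIN1. Within group III replicate 4 of both groups stands above its neighbours, with medians of 2.75 and 0.58.

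Kinases and partner proteins of WRKY factors were read from a list of 13 genes: 4 were higher and none was lower, so 30.8% were called beside 35.3% of all genes. In the higher direction alone the share over all genes was 15.1%. Their median difference was 0.54 beside -0.045 for all genes. JAV1, a VQ protein that represses jasmonate defence, rose with a difference of 1.81 (limma adjusted p = 3.51e-04), and MPK3, a kinase of WRKY33, with 1.35 (limma adjusted p = 0.00356). MEKK1 (0.54) and MKK4 (0.56), upstream in the cascades, also passed, with limma adjusted p of 0.00223 and 0.0260. The MKK4 call was lost on leaving out 35S:WIN1 replicate 3 or control replicate 1, 3 or 4 (adjusted p from 0.0608 to 0.0701). MPK6, which acts beside MPK3, had a difference of 0.24 (limma adjusted p = 0.0997). On the spike-in scale JAV1 stood at 0.17 (adjusted p = 0.767), and MPK3, MEKK1 and MKK4 turned to -0.29, -1.09 and -1.08, so none of the 4 passed as higher there.

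Of 16 genes reported as WRKY targets, 14 were tested, 6 were higher and 1 was lower, with a median of 0.66. The shares were 42.9% higher and 7.14% lower, beside 15.1% and 20.2% of all genes. CYP71A13, an enzyme of camalexin synthesis and a target of WRKY33, was above background on all 4 transgenic arrays and no control array, and was at least 81.9-fold higher, although with normexp its log2 difference was 3.5. ACS6, which makes the ethylene precursor, was higher by 3.04 (limma adjusted p = 3.23e-04). PAD3 (1.40, limma adjusted p = 0.149) and ACS2 (-1.43, limma adjusted p = 0.217) were among the 7 tested targets that did not pass. JAZ8, a jasmonate repressor whose protein forms a complex with JAV1 and WRKY51, was 23.3-fold higher with values raised to the floor (limma adjusted p = 5.26e-04). EDS1, a node of salicylate immunity, was higher by 0.61 (limma adjusted p = 0.00335) but at -1.03 on the spike-in scale. ABI5 of abscisic acid signalling, at 1.62, and the flagellin-response kinase gene FRK1, at 1.66, passed as higher too. FRK1 read -2.31 on 35S:WIN1 replicate 4 and -4.85 to -4.38 on the other transgenic arrays, and its call was not followed under the alternatives. ABI5 turned to -0.018 on the spike-in scale. Its call was also lost on leaving out replicate 1 or 2 of either group (adjusted p from 0.0545 to 0.0614). PBS3, an enzyme of salicylate synthesis, fell by 2.46 (limma adjusted p = 0.0135). PR1, the salicylate marker, and ABI4 were not well above background on any array and were not tested; these were picked out after their values were seen.

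Markers of organs and of senescence moved with the same contrast, and their part in the WRKY differences was not tested. Of 8 shoot markers, all photosynthesis genes, 6 were lower (75%, beside 20.2% of all genes) and none was higher. The calls of PSBO1 and RCA were lost with quantile normalisation (limma adjusted p = 0.135 and 0.214). That of LHCB2.1 was lost with normexp (-0.36, limma adjusted p = 0.226), and all of these were lost without some single arrays. FBA2 and GAPA lost theirs only in the deposited table, and CA1 kept its call throughout. Their summed signal relative to the 75th percentile ran from 346 to 405 in 35S:WIN1 and from 477 to 582 in the control. Of 10 root markers 4 were higher and 3 lower, so 70.0% were called beside 35.3% of all genes, and no root marker was below background on all arrays. Their sums of 55.9 to 92.5 against 38.2 to 52.2 were mostly PYK10, a root beta-glucosidase gene that turned to -0.85 on the spike-in scale, and without it they were 9.09 to 14.8 against 8.63 to 9.61. The root genes went both ways, with MRN1 of triterpene synthesis at 6.01 and the nitrate transporter gene NRT2.1 at -4.68 (2.68 and -1.54 with normexp, since both were partly below background). Of 7 senescence markers 3 were higher and none lower, so 42.9% were called beside 35.3% of all genes, or 15.1% in the higher direction alone. Their sums were 27.2 to 37.6 against 9.40 to 15.4, and without SEN1, the brightest of them, 10.4 to 21.7 against 4.73 to 6.26. SEN1 passed at 1.05, but not without replicate 1 or 2 of either group or control replicate 4 (adjusted p from 0.0585 to 0.0746). ORE1, a senescence NAC factor, had a difference of 3.45 (limma adjusted p = 2.84e-05) and SAG13 one of 3.20 (limma adjusted p = 0.0278), whose call was lost without control replicate 1, 2 or 4 (adjusted p from 0.0611 to 0.0695). SAG12, the late senescence protease, was above background on 2 arrays of each group.

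The count of changed members depended on the scale. Spiked-in control RNA stood 2.77 to 4.38 log2 units above the 75th percentile of the transgenic arrays and 1.55 to 2.78 above that of the control arrays. With arrays scaled to 8 spike-in RNAs, 9 WRKY genes were higher and 21 lower, where 85.9% of all genes were called, 402 of them higher and 17159 lower. The 9 were WRKY33, WRKY38, WRKY40, WRKY45, WRKY46, WRKY51, WRKY53, WRKY62 and WRKY75. In the deposited table, which applies no scaling between the arrays of a group, 13 were higher and 2 lower, where 14.6% of all genes were called. These 3 scales differ only by a constant for each array. The family's median minus that of all genes, 0.70 on each, was therefore fixed by arithmetic and shows no stability. With normexp, which can change it, the gap was 0.58. The share of higher genes among all called was 42.7%, 2.29% and 30.2% with percentile scaling, spike-in scaling and the deposited table.

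**Figure D4:**
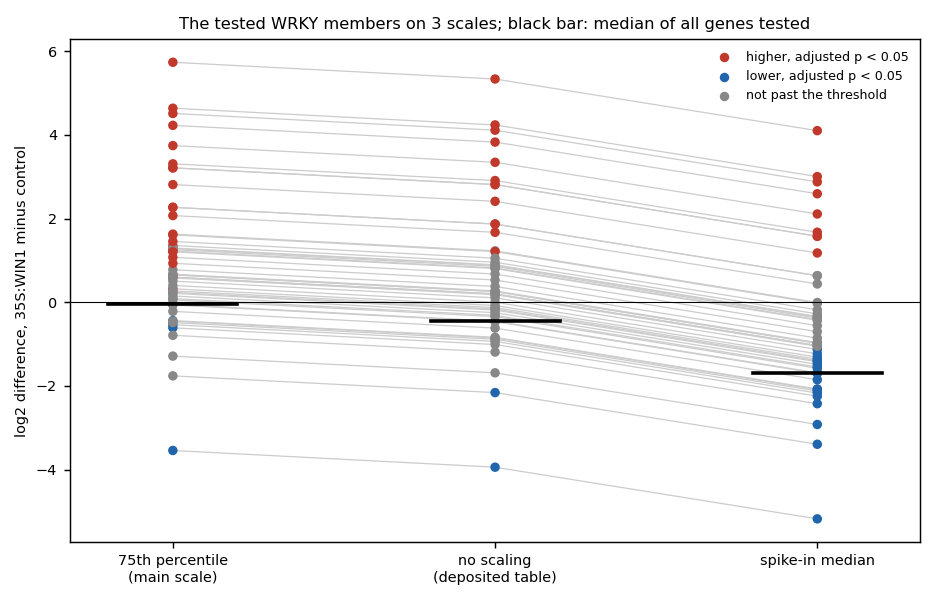
Log2 difference of each tested WRKY gene under percentile scaling, spike-in scaling and the deposited table without scaling, with the median of all genes marked. The family's medians are 0.66, -0.98 and 0.26 against -0.045, -1.68 and -0.45 for all genes, and 13 of the 25 higher members cross 0 on the spike-in scale.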

How the data were processed

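Total RNA (1 µg) of 8 seedling samples was labelled with Cy3 and hybridised to 1-colour Agilent arrays of 39102 spots. Per the submitters' processing notes, Agilent Feature Extraction 9.1.3.1 made the scanner files, whose processed signal, per the file headers, is a linear intensity after background subtraction, without scaling between arrays. Across the series, a deposited value table holds the same intensity divided by one constant per group (about 1341 for 35S:WIN1 and 1312 for the control), for a reason that stays unknown here. Its column medians were 0.0464, 0.0588, 0.114 and 0.125 for 35S:WIN1 and 0.0853, 0.111, 0.112 and 0.126 for the control, linear and uncentred.

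Signals were taken as log2 minus each array's 75th percentile over non-control spots. Outlier spots were left out, spots of a probe were averaged, and 0 probes were saturated. The files name 26236 of 37478 probes by a locus. A locus was its brightest probe, kept where at least 4 of the 8 arrays showed it well above background. The 20441 genes were fitted with limma 3.58.1 (lmFit and eBayes, two-sided) in R 4.3.3, with the package data.table (1.17.8) for input. Where no array of a group was above background, the dimmer mean was raised to the lowest signal above background and the fold is written as at least N-fold. The precision is limited by 4 arrays a group. No arrays held identical values.

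The members, the lists and the structural groups, which follow the published classification, were chosen with earlier results of these data known. Values of every array are printed for the 10 higher and all lower members with the largest differences, the member with the smallest p of each structural group, and the 3 least changed among those above background on all 8 arrays. From each list up to 6 genes with the smallest p are named, and FRK1, PAD3, ACS2, SAG12, PR1 and ABI4 are named besides. Symbols were matched to RefSeq (TAIR10.1) for all 54 members. Cross-hybridisation between related members was not tested.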

Additional observations from a re-analysis of the deposited data

Results flagged for a closer look

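In 9 of 102 sets of 4 arrays (51 members in 2 groups) a single array stood apart from the other 3 by more than Dixon's criterion allows at the 95% level. Chance alone marks about 1 in 20 sets. All 9 members were above background there.

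Among the members called higher, WRKY4 read -0.64 on control replicate 1 beside -0.35 to -0.32 on the others. WRKY6 read 0.14 on 35S:WIN1 replicate 2 beside 0.63 to 0.72. WRKY45 read -1.40 on control replicate 4 beside -0.86 to -0.75, and WRKY72 read -4.42 on control replicate 1 beside -3.62 to -3.50.

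Among members not called, WRKY1 read 0.87 on control replicate 3 where the others read 0.68, WRKY28 read -3.15 on control replicate 4 beside -1.87 to -1.65, and WRKY70 read 1.48 on 35S:WIN1 replicate 1 beside 1.75 to 1.79. WRKY60 at 0.29 (the others -0.38 to -0.30) and WRKY65 at 0.85 (the others 1.87 to 1.91) both stood apart on 35S:WIN1 replicate 4. Without that array WRKY60 passed as lower and WRKY65 as higher. The causes were not tested.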

How the results depend on the processing

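Quantile normalisation, median centring, a detection floor, the mean over probes and a variance trend left 25 WRKY genes higher and 4 lower. Over all genes these settings called 31.8% to 36.2%. With 1 probe for each member, the mean over probes could not change a member's values. The floor could not change those of the 42 members above background on all 8 arrays. Normexp gave 24 and 4 (29.4% of all genes called), no detection filter 23 and 4 (24.8%), detection on all 8 arrays 22 and 3 (35.4%). Array weights gave 25 and 6 (41.4%). On the spike-in scale 9 were higher and 21 lower (median -0.98, 17561 genes called), with the deposited, unscaled values 13 were higher and 2 lower (0.26, 2993 genes), and without the 2 dimmest arrays 21 and 1 (4318 genes). Leaving out 1 array gave 22 to 27 higher, 3 to 6 lower, medians of 0.55 to 0.83 and 5256 to 8335 genes called. Shared replicate numbers did not pair the samples (same-number correlations of -0.036, 0.063, 0.14 and 0.041, and only replicate 3 correlated best with its own number); with the replicate block 24 were higher and 5 lower, and 6041 genes were called, with WRKY30 (adjusted p = 0.00334) and WRKY54 (0.0456) gaining calls.

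Of the 29 called members, 9 kept the call under every alternative in which they were tested and 12 under every one but spike-in scaling. The alternatives counted include the mean over probes, which could not change a member's values. Of the 22 not called, 19 passed under at least 1. Among them WRKY1, WRKY20, WRKY21, WRKY32, WRKY35, WRKY39, WRKY41, WRKY42, WRKY58 and WRKY74 passed only on the spike-in scale, as lower. There 85.9% of all genes were called and 83.9% were lower. Several differences that passed on neither scale also changed sign on the spike-in scale. Those that turned negative there and passed on either scale, and the group medians that did, were the medians of groups I (-1.34), IIb (-0.35), IIc (-0.94), IId (-1.42), IIe (-0.84) and III (-0.34), and WRKY2 -1.04, WRKY4 -1.31, WRKY6 -0.28, WRKY11 -0.38, WRKY15 -0.56, WRKY17 -0.98, WRKY20 -1.36, WRKY23 -1.23, WRKY25 -0.41, WRKY26 -0.0061, WRKY29 -0.35, WRKY32 -1.58, WRKY35 -1.48, WRKY39 -1.42, WRKY41 -1.40, WRKY47 -0.43, WRKY48 -0.024, WRKY57 -1.13, WRKY69 -0.70, WRKY72 -0.18, WRKY74 -1.55, MEKK1 -1.09, MPK3 -0.29, MKK4 -1.08, MPK6 -1.39, EDS1 -1.03, ABI5 -0.018, PYK10 -0.85, SEN1 -0.58, SGR1 -1.36 and PAO -1.38. In the deposited table group I (-0.10), group IId (-0.19) and WRKY4 (-0.078) turned negative. The cause was not tested. Calls of WRKY4, WRKY17 and WRKY27 were lost without most single arrays, and only 42 of the 54 members were above background on all 8 arrays, which limits the folds of the others. Reading the structural groups from protein sequence was not run.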

Other observations

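Within the control, the WRKY genes had their highest value on different arrays than genes at large. Control replicate 2 was the highest control array for 24 of the 51 tested members (47.1%) and replicate 4 for 20 (39.2%), while replicate 1 was highest for 3 (5.88%). Over the 20270 genes with values on every array the shares were 20.8% for replicate 2, 27.0% for replicate 4 and 29.2% for replicate 1. In group III, control replicate 4 was the highest control array for 6 of 9 members and 35S:WIN1 replicate 4 the highest transgenic array for 5 of 9. These shares are a description of these arrays, since members of one family on one array are not independent, and what sets the arrays apart was not tested.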
